A study of Homo sapiens with 2 samples.

Results

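PLAU, PLAUR, PLAT and SERPINE2 are 4 genes of the urokinase system, the set of proteins that turns plasminogen into plasmin at the cell surface. They were taken as all rows that carry their Ensembl gene identifiers in the 10 lists of alternative splicing events deposited for the series. All 4 had a row in at least 1 library, 4 of the 8028 genes with an identifier in either library. They held 78 of the 42783 events of the DCRT-KO library and 12 of the 35307 events of the WT library. The genes were chosen with these lists known, so the numbers of events that separate the libraries are a description and carry no test.

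The study used AC16 cells, an established human cell line that the labels call cardiomyocytes from heart. Per the labels, the DCRT-KO library came from AC16 cells in which the long non-coding RNA DCRT was knocked out with CRISPR-Cas9, and the WT library from AC16 cells without that knockout. Whether both libraries come from the same line was not tested, and fibroblast and epithelial marker genes, given further on, differed between them. Both genotypes were grown in the same way and neither received a further treatment in the labels. There was 1 library of each genotype, so no difference has a replicate check, and whether the knockout line is a single clone is not given in the sources used here. The series describes single-molecule long-read sequencing of whole transcripts, in which a read can span all exons, while the protocols in the labels describe short-read libraries. A listed event sets 1 form of a splice choice against another and names the assembled transcripts (isoforms) with either form, with no read number or inclusion level. The depth behind an event is therefore unknown, and more reads, higher expression and more varied splicing of a gene cannot be told apart in these lists. A gene without a row is not listed, which does not show that it was silent. The targeted RNA itself was not analysed here.

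Urokinase, the product of PLAU, is a secreted serine protease that cuts plasminogen to plasmin. It binds the GPI-anchored receptor PLAUR through a growth-factor-like domain, which keeps the protease at the cell edge. PLAT is the related tissue-type plasminogen activator, best known for dissolving clots, and SERPINE2 (protease nexin 1) is a serpin that inhibits such proteases. Plasmin activity at the cell surface is known for its part in matrix breakdown, cell migration and remodelling of the injured heart.

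The sequences below are the stretches of PLAU on which the main events turned. All are from the plus strand of chromosome 10, build GRCh38, read from the GENCODE v29 transcript sequences, and exon numbers are those of PLAU-201 (ENST00000372764), which has 11 exons and 431 codons. Exon 3, the 28-base exon at chr10:73912041-73912068, is shown in capitals between the last 30 bases of exon 2 and the opening 30 bases of exon 4. The line after it gives the junction without exon 3, with the stop codon that comes into frame there in capitals.
PLAU exon 3 included: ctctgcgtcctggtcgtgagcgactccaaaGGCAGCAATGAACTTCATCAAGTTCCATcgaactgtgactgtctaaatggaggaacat
PLAU exon 3 skipped: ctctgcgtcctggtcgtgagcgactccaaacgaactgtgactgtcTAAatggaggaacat

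Exon 6, at chr10:73913290-73913381, holds an alternative donor after 40 of its 92 bases. The capitals mark the 52 bases that were lost with this donor, and they open with the GT of a donor site.
PLAU exon 6: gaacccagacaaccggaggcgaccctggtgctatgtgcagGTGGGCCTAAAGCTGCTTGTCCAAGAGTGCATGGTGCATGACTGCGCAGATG

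Exon 11 opens at chr10:73916389 and holds an acceptor that the annotation lacks. The capitals mark the bases skipped with it, which end in the AG of an acceptor site.
PLAU exon 11 start: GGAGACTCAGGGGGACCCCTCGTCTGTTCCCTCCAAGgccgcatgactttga

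A different kind of event, listed as intron retention, set a form without a stretch inside exon 7 (chr10:73913696-73913750) or exon 10 (chr10:73915298-73915370) against the form with it. The capitals mark the removed bases, which neither open with GT nor end with AG.
PLAU new intron in exon 7: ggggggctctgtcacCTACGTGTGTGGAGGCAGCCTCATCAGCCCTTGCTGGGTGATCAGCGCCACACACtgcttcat
PLAU new intron in exon 10: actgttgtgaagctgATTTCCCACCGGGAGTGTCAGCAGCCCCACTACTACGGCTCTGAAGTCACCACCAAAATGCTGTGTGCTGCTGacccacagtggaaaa

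PLAU (ENSG00000122861, chr10:73909177-73917497, plus strand) had 63 events in the DCRT-KO library and 1 in the WT library. The DCRT-KO events were carried by 62 isoforms of that library, numbered between 4 and 67, and the WT event by a single isoform with the number 1. Of the DCRT-KO events, 34 were intron retentions, 15 alternative donors, 7 exon skips, 6 alternative acceptors and 1 a pair of mutually exclusive exons. The WT event was an exon skip. In events plus 1, PLAU was 32-fold higher in DCRT-KO than in WT. Per 10000 events of each library, PLAU held 14.7 in DCRT-KO and 0.283 in WT.

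The other 3 genes differed less in number. PLAUR (ENSG00000011422, chr19:43646095-43670547, minus strand) had 11 events in DCRT-KO, on 13 isoforms, and 5 in WT, on 8 isoforms. PLAT (ENSG00000104368, chr8:42175233-42207724, minus strand) had 4 events in each library, carried by 11 isoforms in DCRT-KO and 13 in WT. SERPINE2 (ENSG00000135919, chr2:223975112-224039319, minus strand) was not listed in DCRT-KO and had 2 events in WT. PLAU was thus the one member at or past a fold of 3 (in events plus 1) towards DCRT-KO, and SERPINE2, exactly at it, the one towards WT. Of all 8028 genes, 16.7% were at or past that fold towards DCRT-KO and 11% towards WT. Among the 2525 genes with at least 10 events in both libraries together these shares were 15.2% and 7.05%. Since the genes were chosen on these numbers, nothing was read from the counts of members against those shares.

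**Figure D1:**
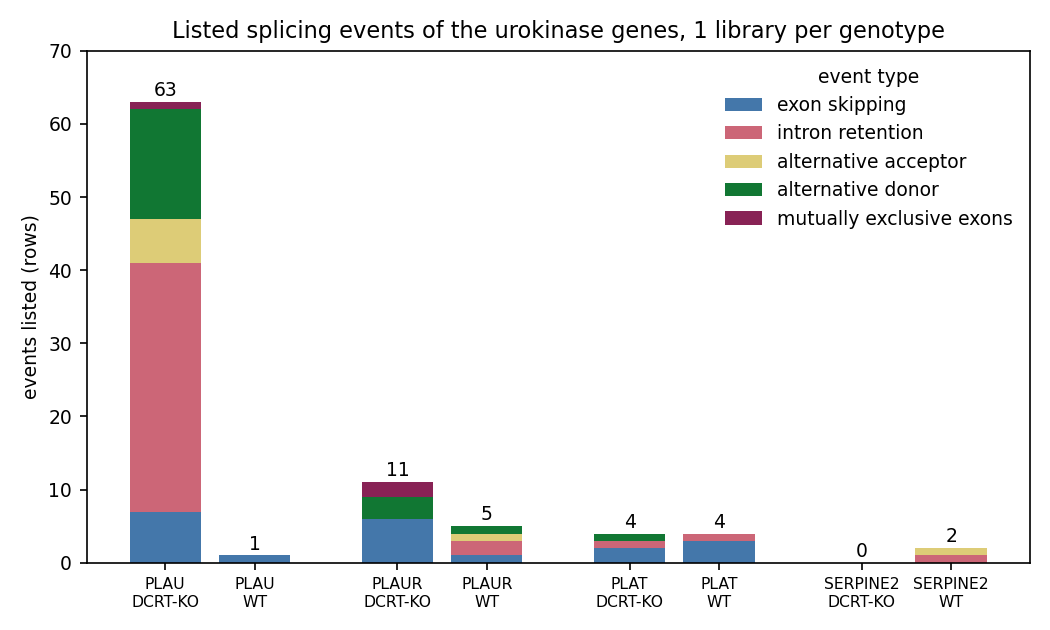
Events listed for PLAU, PLAUR, PLAT and SERPINE2 (vertical axis, rows of the event lists) in the DCRT-KO and WT libraries, 1 library each, with the event types stacked by colour. PLAU stands at 63 events in DCRT-KO, of which 34 are intron retentions, against 1 exon skip in WT, while PLAUR has 11 and 5 events, PLAT 4 and 4, and SERPINE2 0 and 2.

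Set against all genes, PLAU stood at the edge of the distribution, pairing a high DCRT-KO number with a near-empty WT side. Only 4 genes had a larger difference in events towards DCRT-KO. HSPA8, a heat shock chaperone, had 197 events in DCRT-KO and 57 in WT. The translation initiation helicase EIF4A2 had 120 in DCRT-KO and 43 in WT. The serine synthesis enzyme PHGDH had 77 in DCRT-KO and 4 in WT, and UBAP2L had 93 in DCRT-KO and 23 in WT. Of the 28 genes that reached 60 events in DCRT-KO, PLAU was the only one with at most 1 event in WT. Just under that bound, SMIM47 had 59 events in DCRT-KO and 0 in WT, so a near-empty WT side was not particular to PLAU.

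**Figure D2:**
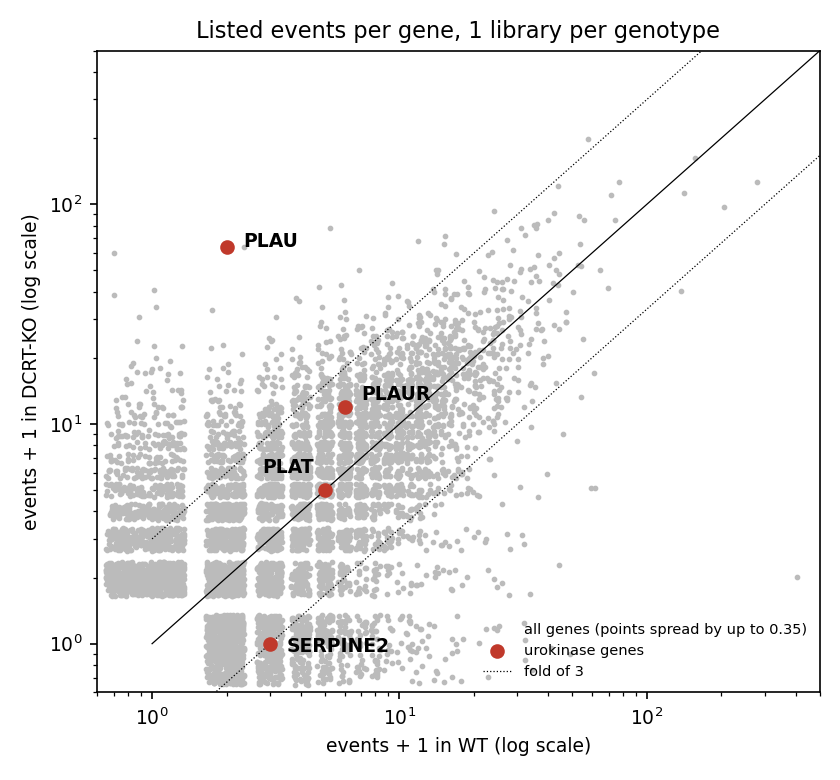
Events per gene plus 1 in the WT library (horizontal, log scale) and the DCRT-KO library (vertical, log scale), 1 library each; each grey point is a gene, the solid line marks equal numbers and the dotted lines a fold of 3. PLAU lies far above the upper dotted line, PLAUR and PLAT lie between the lines and SERPINE2 on the lower line.

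The skip of exon 3 was the only PLAU event found in both libraries. In DCRT-KO, 8 of the 52 isoforms compared over this exon lacked it, 15.4% (exact Clopper-Pearson 95% interval 6.88 to 28.1), and in WT the only isoform lacked it. The lists gave 6 skipping against 16 including isoforms in 1 DCRT-KO event and 2 against 15 in another. A further DCRT-KO event set isoforms that include exon 3 against the annotated transcript PLAU-202 (ENST00000446342), which skips it. In the WT event the form with exon 3 was carried by the annotated PLAU-201 alone. The interval covers the counting of isoforms only, and an isoform is not a molecule, so it says nothing about how much of each form was made.

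Exon 3 joins the signal peptide exon to the exon of the growth-factor-like domain. Its 28 bases are not a whole number of codons, and without it the frame of PLAU-201 met the stop codon shown above after 24 codons, against 431 codons with it. PLAU-202 also lacks exon 3 and has a coding sequence of 1242 bases, and it splices from a donor inside intron 2, after position 73911925. In DCRT-KO 4 isoforms used that PLAU-202 donor. All 4 joined it to exon 3, across a 115-base intron (chr10:73911926-73912040) that GENCODE v29 does not list, while PLAU-202 joins it to exon 4.

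Skips of the domain exons were rarer and were listed for DCRT-KO only, where the WT list held no isoform that could be compared. Exon 4 (chr10:73912215-73912322), which encodes most of the growth-factor-like domain that binds PLAUR, was absent from 3 of 36 isoforms. Its 108 bases are a whole number of codons, and the frame without it ran for 395 codons. Exon 5 (chr10:73912924-73913098), part of the kringle domain, was absent from 2 of 36 isoforms, and exon 7 (chr10:73913539-73913758), which opens the protease part, from 2 of 29. Without exon 5 the frame stopped after 80 codons, and without exon 7 after 178. Isoform number 16 lacked both exon 4 and exon 5, and number 14 lacked both exon 4 and exon 7. The protease exons 8 to 11 were not skipped between their annotated sites in any PLAU isoform of these lists.

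Intron retention was the most frequent PLAU event when all rows were counted, and it tied with alternative donors, at 8 events each, among the 23 events with at least 2 isoforms on each form. It touched 7 of the 10 introns of PLAU-201. The retained form was carried by 9 of 33 compared isoforms for intron 9, the 334-base intron at chr10:73914917-73915250. It was carried by 7 of 52 for intron 2, by 6 of 37 for intron 3 and by 6 of 30 for intron 8. Introns 6 and 7 were retained in 4 isoforms each, of 32 and 30 compared, and intron 4 in 2 of 10. Introns 1, 5 and 10 were not listed as retained. Intron 10 is the longest of PLAU-201 with 989 bases, and the retained introns ran between 146 bases (intron 3) and 647 bases (intron 8).

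Most isoforms with a retained intron were listed with a single one. In all, 25 of the 62 isoforms had at least 1 retained PLAU-201 intron: 16 had 1, 7 had 2, 1 had 3 and 1 had 5. The isoform with 5, number 6, held introns 3, 4, 7, 8 and 9. Only 3 isoforms combined a retained intron with a skipped exon.

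**Figure D3:**
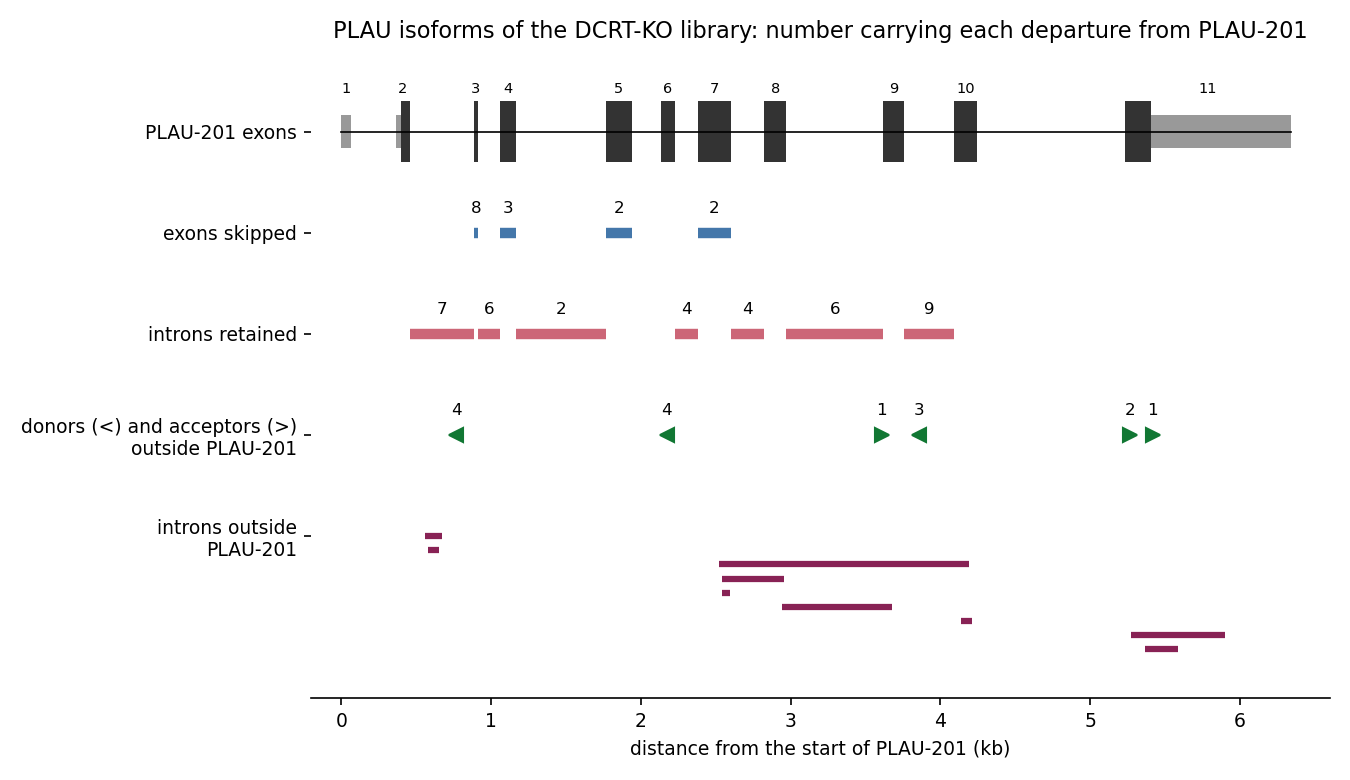
Departures of the 62 PLAU isoforms of the DCRT-KO library from the annotated transcript PLAU-201, by distance from its start in kb; tall boxes are coding exons, low boxes untranslated ones, and numbers give the isoforms that carry each skipped exon, retained intron, donor or acceptor. Exon 3 was skipped in 8 isoforms, retention was most often listed for intron 9 (9 isoforms), and each of the 9 introns in the lowest part was carried by 1 isoform.

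Intron retention made up 54.0% of the PLAU events in DCRT-KO (exact 95% interval 40.9 to 66.6). The intervals in this paragraph treat rows as separate, although rows share isoforms and some introns recur. They cover counting error only and do not measure replicate spread. Over all DCRT-KO events the share was 28.6%. Genes with many events had higher shares: the median of the 133 genes that had 30 or more DCRT-KO events was 42.9%, and 40 of them lay above PLAU. The retained intron was an intron of some v29 transcript in 19 of the 34 PLAU retentions, 55.9% (37.9 to 72.8), against 48.2% of the 12224 retentions of the whole DCRT-KO library. PLAU, chosen with its event number known, had 63 DCRT-KO events on 62 isoforms, or 42 with each distinct type and position counted once. The 44 other genes with 50 to 74 DCRT-KO isoforms had between 12 and 77 events with a median of 39, and 4 had more than PLAU. Their numbers count every row, repeats included, so they compare with the 63 rows of PLAU only. Since PLAU was chosen on its number, its rank among them is a description.

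Sites outside PLAU-201 formed another group of events. The donor inside exon 6, shown above, was used by 4 isoforms, while 49 used the end of exon 6 in the same comparisons. It is not in GENCODE v29, and the frame with it ran for 146 codons. A donor inside intron 9, after position 73915011, was used by 3 of 39 compared isoforms, and an acceptor in intron 8, at position 73914765, by 1 of 18. In exon 11, which encodes the end of the protease, the acceptor at 73916426 was used by 2 of 7 isoforms and left 375 codons before the stop. A further acceptor, at 73916576, lies beyond the stop codon of PLAU-201 and was used by 1 of 4.

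The introns with both ends outside the annotation had another make-up. Their events are among the 34 listed as intron retention, where the other form keeps the stretch. There were 9 of them in PLAU, each carried by 1 isoform. Read on the plus strand, none had GT at its start and AG at its end, also with the ends shifted along their shared bases. In 8 of the 9 the bases at the start were repeated at the end, over 3 to 5 bases. The stretch removed from exon 7 has the repeat cac at its ends, and opens with CT and ends with AC. Of the 9, 2 had CT and AC ends, the other being the intron at chr10:73913696-73914115. The stretch removed from exon 10 has the repeat gctga. The longest of the 9, 1672 bases from exon 7 into exon 10 (chr10:73913680-73915351), took out exons 8 and 9 whole and belonged to isoform number 22. The frame left by the exon 7 stretch ran for 233 codons and by the exon 10 stretch for 363. Such ends are given as measured, and whether these introns arose in the cell or in copying and alignment was not tested.

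The 62 isoforms fell into 2 sets that never met in the same event. The isoforms numbered 4 to 46 formed 1 set of 42, with 49 events, of which 28 were retentions. The isoforms numbered 47 to 67 formed the other set of 20, with 14 events, of which 6 were retentions. In both sets the retentions include events of the introns with both ends outside the annotation, and in the set of 20 most are of that kind. Of the isoforms with a retained PLAU-201 intron, 24 were in the lower-numbered set and 1 was in the higher-numbered set. Both sets held skips of exon 3, the donor in intron 2, the donor in exon 6, the donor in intron 9 and the acceptor at 73916426. Annotated PLAU transcripts were named in events of the lower-numbered set only.

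**Figure D4:**
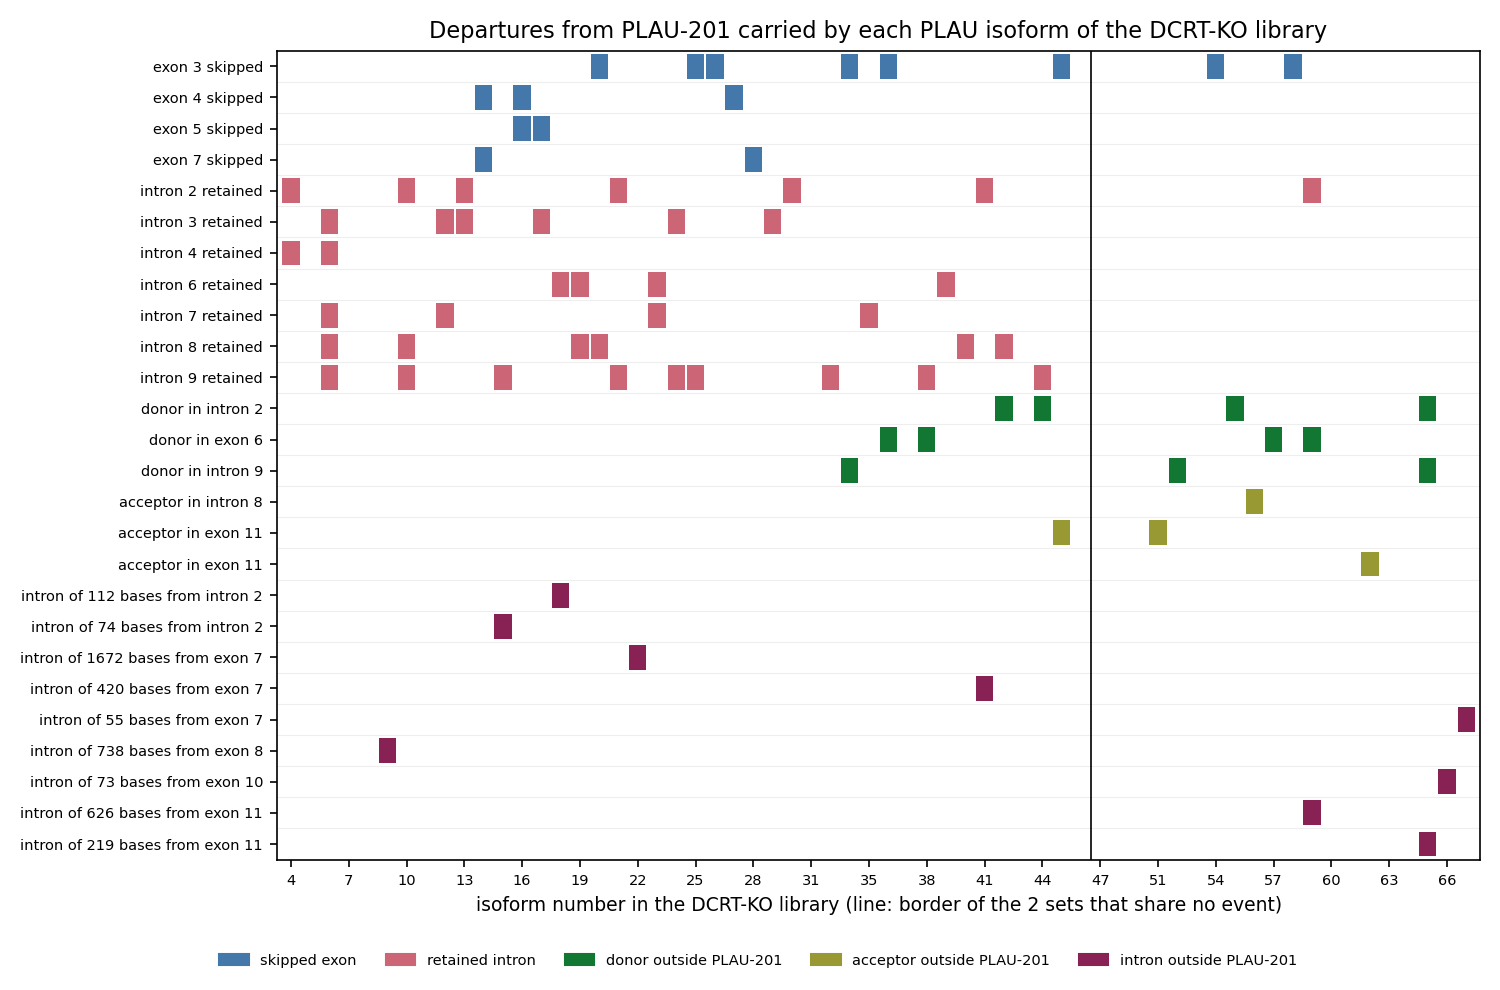
Each column is 1 of the 62 PLAU isoforms of the DCRT-KO library, by its number, and each row 1 of 26 departures from PLAU-201; a filled cell marks an isoform listed with it, and the line divides the sets 4 to 46 and 47 to 67. An empty cell can also mean that the isoform was not compared there. Retained introns fall in the left set (24 isoforms) and 1 column of the right set, while 11 of the 26 departures are carried by a single isoform.

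Few departures were listed per isoform, but each was scored only where an event compared that isoform. Intron 4, for instance, was compared in 10 of the 62, so an isoform with no listed departure need not match PLAU-201. No departure from PLAU-201 was listed for 16 isoforms, 1 for 21, 2 for 21, 3 for 3 and 5 for 1. An event with few isoforms on a form rests on less than an event with many. In 36 of the 63 PLAU events 1 form was carried by a single isoform, in 4 a form was carried by annotated transcripts alone, and in 23 each form had at least 2 isoforms. Under that last condition retention made up 34.8% of the events, 8 of 23, and PLAU had 23 events in DCRT-KO and 0 in WT.

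PLAUR, the receptor, is built of 3 similar domains that are each encoded by a pair of exons. Exon numbers are those of PLAUR-203 (ENST00000340093). The only PLAUR event in both libraries was the skip of exon 5 (chr19:43655439-43655573, build GRCh38), which encodes a part of the middle domain. The exon is shown 5′ to 3′ on the minus strand, from the v29 transcript sequence, because it was the receptor's shared event.
PLAUR exon 5: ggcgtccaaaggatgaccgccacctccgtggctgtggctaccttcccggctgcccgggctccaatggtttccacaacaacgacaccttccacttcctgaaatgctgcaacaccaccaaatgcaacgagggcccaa

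Exon 5 has 135 bases, 45 codons, so that its loss keeps the frame, and the annotated PLAUR-201 (ENST00000221264) lacks it. It was skipped in 2 of 7 DCRT-KO isoforms, 28.6% (exact 95% interval 3.67 to 71.0), and in 1 of 5 WT isoforms, 20% (0.505 to 71.6). The intervals overlap almost entirely, but they cover the counting of isoforms only, and an isoform is not a molecule. With 1 library of each genotype, no difference between genotypes can be judged from them. A second DCRT-KO row of this skip was formed by annotated transcripts alone.

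The other PLAUR events were listed in 1 library each. In DCRT-KO exon 3 (144 bases, in the domain that binds urokinase) was skipped in 2 of 11 isoforms, and exon 4 (162 bases) in 1 of 6, both whole numbers of codons. DCRT-KO isoforms used inner donors of exon 4, after 43656488 and 43656593, which shortened the exon by 9 and 114 bases and are both followed by GT. A donor 20 bases into intron 5, after 43655419, was used by 1 isoform. A pair of events set exon 3 against exon 4 and exon 4 against exon 5 as mutually exclusive. In WT the 905-base intron 4 was retained in 1 isoform and spliced in 3. WT also listed an acceptor 76 bases into exon 2, at 43667615, preceded by GA rather than AG and used by 1 isoform against 5. A 1120-base intron from exon 4 into exon 5 (chr19:43655492-43656611), absent from v29 and with TA and GA at its ends, was carried by 1 WT isoform. No intron retention of PLAUR was listed in DCRT-KO.

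PLAT, the tissue-type activator, shares its kringle fold with urokinase. Exon numbers are those of PLAT-201 (ENST00000220809). Exon 7 (chr8:42185081-42185172), part of the kringle nearer the start of the protein, was the only PLAT segment with an event in both libraries. In DCRT-KO 1 of 9 isoforms skipped it, and in WT 8 isoforms included it and 0 skipped it, the skipped form being an annotated transcript. The upper exact limit for 0 of 8 is 36.9%, above the DCRT-KO share of 11.1%. That limit covers the counting of isoforms only. With 1 library of each genotype, no difference between genotypes can be judged from these shares. A further DCRT-KO isoform used a donor inside exon 7 that kept 48 of its 92 bases. Exon 6 of PLAU, at the matching place of its kringle, also has 92 bases and also had an inner donor, which kept 40.

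The remaining PLAT events again fell in 1 library each. In WT exon 4 (chr8:42188934-42189071), which encodes the finger domain, was skipped in 2 of 11 isoforms, 18.2% (2.28 to 51.8), as in the annotated PLAT-202 (ENST00000352041). A 52-base exon in intron 1 was left out by all 11 WT isoforms compared and included in an annotated transcript only. Stretches of 78 bases in exon 6 (DCRT-KO, 1 isoform against 8) and of 79 bases in exon 4 (WT, 1 isoform against 9) were listed as introns that v29 lacks.

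SERPINE2, an inhibitor of urokinase and thrombin, was not listed in DCRT-KO. Its 2 WT events rested on 1 isoform, number 3, set against the annotated transcript ENST00000409304. A listed acceptor or intron of this gene therefore came from a single transcript of the WT library.

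One SERPINE2 event was a choice between acceptors 3 bases apart at the start of exon 7, both in GENCODE v29. The WT isoform used the upstream acceptor and so kept the CAG in capitals (chr2:223980378-223980400, minus strand, 5′ to 3′, build GRCh38, v29 transcript sequence), shown because these 3 bases are what the choice adds or removes.
SERPINE2 tandem acceptor: CAGggtcagaaaacctccatgtt

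The other SERPINE2 event removed 63 bases from the untranslated exon 1 (chr2:224039126-224039188), opening with CC and ending with GG, with ccg repeated at its ends. With 0 isoforms in DCRT-KO, nothing can be said of the use of either acceptor there.

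The other genes of plasminogen activation gave no common direction. Of 53 genes in 6 lists, 25 had an event in either library. The larger number was in DCRT-KO for 15 of them and in WT for 10, with a median difference of 1 event. Over all 8028 genes, 4205 had more events in DCRT-KO, 3000 in WT and 823 as many in both, also with a median of 1. At or past a fold of 3 were 5 of the 25 genes towards DCRT-KO and 4 towards WT, where all genes gave the 16.7% and 11% above.

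None of the 7 genes of the list of plasminogen and inhibitors had an event in either library, plasminogen itself (PLG) included.

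Of the plasminogen receptors and cofactors, ANXA2 had 84 events in DCRT-KO and 74 in WT. ENO1, a glycolytic enzyme that also binds plasminogen at the surface, had 80 in DCRT-KO and 35 in WT. Of the partners and clearance receptors of PLAUR, the integrin chain ITGA5 had 10 events in DCRT-KO and 24 in WT. ITGA3, another integrin chain, had 3 in DCRT-KO and 14 in WT. In this list 5 of 7 listed genes had more events in WT, against 3000 of all 8028 genes. In the other lists with a listed gene, the larger number was more often in DCRT-KO, as for 4205 of all 8028 genes. It was in DCRT-KO for 3 of 4 listed receptors and cofactors and 3 of 5 pericellular proteases, growth factors and inhibitors. The same held for 4 of 5 genes of the LY6 family and 3 of 4 other serpins. With so few genes per list, nothing was read from these counts. LRPAP1, the chaperone of the clearance receptor LRP1, had 0 events in DCRT-KO and 7 in WT. LRP1 itself had 0 in DCRT-KO and 2 in WT. VLDLR, another clearance receptor, had 4 in DCRT-KO and 0 in WT. Of the pericellular proteases, the collagenase MMP1 had 7 events in DCRT-KO and 0 in WT. SERPINH1, a collagen chaperone of the serpin fold, had 3 in DCRT-KO and 10 in WT. LRPAP1, LRP1, VLDLR and MMP1 fall outside the rule for named genes and were chosen after their values were seen.

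**Figure D5:**
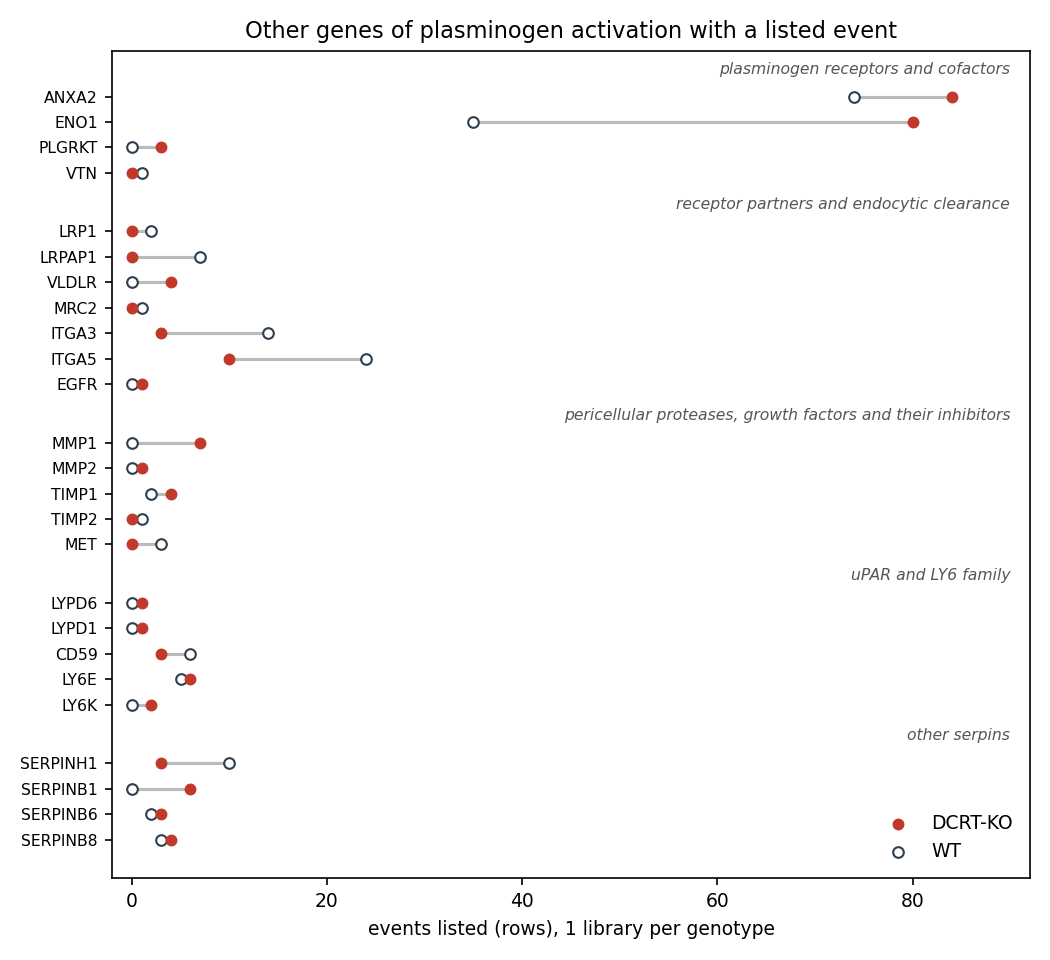
Events listed in the DCRT-KO library (filled points) and the WT library (open points) for the 25 listed genes of 5 groups around plasminogen activation, 1 library each, with a line joining both values of a gene. ENO1 lies at 80 in DCRT-KO and 35 in WT, and most other genes lie under 15 in both.

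Event numbers of cell type markers differed between the libraries. Of 10 fibroblast markers 8 were listed, with 18 events in DCRT-KO and 477 in WT, of which COL1A1 held 1 and 405. More events were in WT for 6 of the 8, against 3000 of all 8028 genes. VIM, with 15 in DCRT-KO and 12 in WT, and PDGFRA, with 2 in DCRT-KO and 0 in WT, had more in DCRT-KO. COL3A1 and THY1 had 0 in DCRT-KO, against 12 and 5 in WT. DCN and LUM were at 0 in both. Of 10 epithelial markers 5 were listed, with 84 events in DCRT-KO and 23 in WT. More events were in DCRT-KO for 4 of the 5, against 4205 of all 8028 genes, and ITGB4 had 1 in each library. LAMB3, a laminin chain of epithelial basement membranes, had 35 in DCRT-KO and 3 in WT, and KRT18 had 38 and 16, while EPCAM and CDH1 were at 0 in both. Of 17 markers of contracting cardiomyocytes 2 were listed, with 0 events in DCRT-KO and 3 in WT. TNNT2, MYH6, MYH7 and ACTN2 were at 0 in both. The part of these differences in the PLAU numbers was not tested.

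The genes most like PLAU were sought over 10 values, the log2 of events plus 1 for 5 event types in both libraries, by Euclidean distance. SLCO4A1, an organic anion transporter, lay nearest at 2.00, with 40 events in DCRT-KO and 0 in WT. SMIM47 followed at 2.01 (59 events in DCRT-KO, 0 in WT), then the splicing factor HNRNPH1 at 2.35 (38 and 0), ARHGDIA at 2.54 (42 and 5) and the tumour antigen PRAME at 2.63 (33 and 0). Intron retention was the most frequent DCRT-KO type in all 5 of them. Apart from ARHGDIA, none of them was listed in WT. Both traits lie within the 10 values used to choose these genes, so they are no separate finding.

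The antisense gene C10orf55, which overlaps PLAU, had 0 events in both libraries, and no event under another identifier lay inside the span of any of the 4 genes.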

How the data were processed

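Each library had 5 deposited lists, 1 per event type, 10 in all. Per the file headers, a row gives the chromosome, isoforms of both forms, gene identifier, structure code and splice positions. The deposited values are thus names and positions, with no read number or level. Alignment used minimap2 and the build was hg38, per the submitters' processing notes. How isoforms were built and events called is not given in the sources used.

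Each row was counted as 1 event. Positions were compared with GENCODE v29 (GRCh38), where 10 of the 11 annotated transcripts in rows of the 4 genes were found. A departure was given to an isoform when the form it carried in an event differed from PLAU-201, whatever the other form was. Isoforms of both forms were counted as compared, so isoforms compared differ by departure. Codons were counted from the PLAU-201 start with only that change. A fold of 3 or more in events plus 1 was called; with 1 library per genotype there was no test. Shares have exact Clopper-Pearson 95% intervals (counting error only). Python 3.11.15, NumPy 2.4.6 and SciPy 1.17.1 were used. Only the fold call was tested on simulated event numbers, not the counting of events or the assignment of departures.

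The 4 genes and all lists were chosen with earlier results of these data known. Named were the 4 genes, listed pathway genes with at least 10 events in either library, the 5 genes most like PLAU and overlapping genes; a gene of the pathway lists is not reported here and was left out of their counts. The alternatives changed repeats, carriers, support, annotation, isoforms, list length and gene span.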

Additional observations from a re-analysis of the deposited data

How the results depend on the processing

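Of 32 alternative values, 13 moved by over 1.5 times, away from or to 0, or, for the retention share, out of its exact interval, and 19 did not. Values per 10000 events were first scaled back to the mean list length. All are events in DCRT-KO minus WT unless a share is named. Counting each distinct type and position once gave 41 for PLAU (42 and 1). Asking for 2 or more library isoforms per form, the differences were 23 for PLAU, 2 for PLAUR, -1 for PLAT and 0 for SERPINE2, and the retention share of PLAU was 34.8%. With both forms carried by a library isoform, PLAT was at 2 (4 and 2) and SERPINE2 at 0. With retention counted at annotated introns only, SERPINE2 was at -1 and the PLAU retention share at 39.6%, fewer retentions being counted by construction. In isoforms, PLAT was at -2 (11 and 13) and SERPINE2 at -1, and per 10000 events PLAT was at -0.198. PLAU stayed above 0 under all 7 alternatives and PLAUR under all 7, while PLAT, at 0 as reported, took either sign. No paired analysis was possible because each genotype has 1 library. Depth is unknown, so an event missing from a library may lie below detection.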
